A study of Drosophila melanogaster with 7 samples.

Results

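The vacuolar-type proton pump (V-ATPase) genes of the fly midgut are described here across 3 oxygen levels. They were chosen by name: every gene whose name in the deposited gene table starts with Vha followed by a digit, an M or an A, which gave 30 of 24204 genes. The table holds 33 names that start with Vha; VhaSFD, VhaPPA1-1 and VhaPPA1-2 also encode pump subunits but fall outside that rule, and their values are given separately.

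The tissue is the midgut of Drosophila melanogaster virgin females, by its labels, although the extraction notes speak of the gut. All groups carry the same transgenes, sg-Gal4,UAS-GFP, a Gal4 driver with a green fluorescent protein reporter. The flies lived in hermetic cabinets at 10% (hypoxia), 20% (normoxia) or 40% oxygen (hyperoxia), and RNA was taken at day 53. There were 3 libraries at 10%, 3 at 20% and 1 at 40%; replicates 1 and 2 at 10% and 20% form batch 1, and replicate 3 of both groups and the 40% library form batch 2. Whether replicates are separate animals, cultures or pools is not stated in the labels. The p-values therefore reflect the spread among these 7 libraries alone, and that spread may be technical.

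The V-ATPase uses ATP to move protons across membranes. Its soluble V1 sector holds the catalytic A subunits, the nucleotide-binding B subunits and the stalk subunits C to H. Its membrane V0 sector holds subunit a, the ring of proteolipids c, and subunits d and e. It acidifies lysosomes in all cells and energises the apical membranes of many insect epithelia, and in the fly midgut it acidifies the lumen at the copper cells of the middle region. Fly genomes carry several copies of many subunit genes, and the isoform of subunit a is known to set where a pump sits. Vha100-1 is the isoform known from neurons and synaptic vesicles, Vha100-2 is widely used, and Vha100-4 is known from the copper cells.

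The 30 genes encode 11 subunits and the accessory family AC45. There are 12 genes for V1, 16 for V0 and 2 accessory genes, on 2L (5 genes), 2R (8), 3L (5), 3R (10) and X (2). Library totals were 19.2 to 22.2 M (mega) counts. Transcripts of the mitochondrial genome took 4.10% to 4.68% of counts in batch 1 but 61.0%, 64.0% and 71.0% of those at 10%, 20% and 40% in batch 2, which left 20.6 to 21.2 M nuclear counts per library in batch 1 and 7.49, 6.998 and 5.73 M in batch 2. The pump genes took 1.07% to 1.14% of nuclear counts in batch 1. Their share in batch 2 was 0.769% at 10%, 0.832% at 20% and 0.694% at 40%. The batches differed in tissue as well: summed muscle markers stood at 884 to 1208 counts per M after TMM scaling (hereafter CPM) in batch 1 and at 12863 to 15366 in batch 2, and tracheal markers at 63.5 to 74.6 against 340.8 to 467. Comparisons between oxygen levels were therefore made within batches or with batch in the model. In whole-gut RNA, fewer cells of a type and less RNA per cell cannot be told apart.

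The midgut label was checked against its markers. The midgut trypsin gene betaTry stood at 5356 to 17660 CPM and the enterocyte myosin Myo61F at 233 to 930. Of 12 testis markers 7 were at 0 in all 7 libraries, and their sum never exceeded 4.43 CPM. In females this was fixed in advance and does not bear on the dissection. Ovary markers were present and uneven: their sum was 735, 256 and 2221 CPM at 10%, 658, 602 and 1243 at 20%, and 972 at 40%. Among them Yp1, also counted as a fat body marker, stood at 78.0 to 825 CPM. The ovary marker osk stood at 8.72, 0.142 and 0.722 CPM at 10%, 9.01, 40.5 and 2.06 at 20%, and 0 at 40%.

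Most subunits came from 1 dominant gene each, and 14 of the 30 genes were low or absent. For comparing genes with each other, TPM (transcripts per M transcripts, a per-length level) was rescaled over nuclear genes. The plot of levels by library shows the 16 genes whose deposited TPM averaged 10 or more over the 7 libraries.

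**Figure D1:**
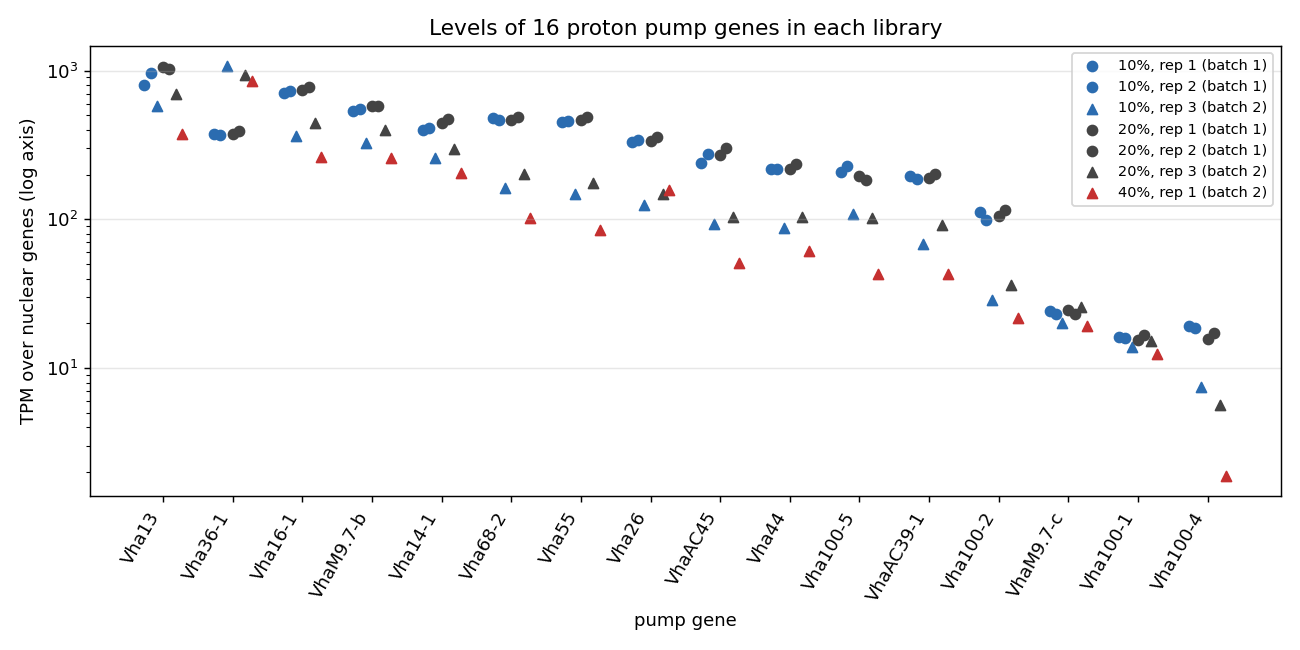
Per-length level (TPM rescaled over nuclear genes, log axis) of the 16 pump genes whose deposited TPM averaged 10 or more, ordered by mean level. Each point is 1 library, coloured by oxygen level, with circles for batch 1 and triangles for batch 2; batch 2 lies lower for most genes but higher for Vha36-1, and Vha100-4 is lowest in the 40% library at 1.89.

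Another 6 genes had 0 counts in all 7 libraries: Vha100-3 (subunit a), Vha14-2 (F), Vha36-2 (D) and the proteolipid genes Vha16-2, Vha16-3 and Vha16-4. A count of 0 allows up to 3 counts, which is 0.0827 to 0.332 CPM depending on the library, with the highest limit at 40%. Vha68-3, Vha16-5 and VhaM9.7-d never exceeded 5, 2 and 1 counts. Several duplicated pump genes of the fly are known from testis. The remaining 5 genes were detected at low levels, with at most 262 counts in any library: Vha68-1, Vha36-3, VhaM9.7-a, VhaAC39-2 and VhaAC45RP.

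The subunits were not equally abundant as RNA. Summed over isoforms, per-length levels in batch 1 were highest for subunit G of the V1 stalk (804 to 1061), then the proteolipid c (705 to 772), subunit e (561 to 608), the catalytic A (465 to 487) and the nucleotide-binding B (448 to 489). Subunit d, which joins the proteolipid ring to the stalk, was lowest in every library, at 187 to 205 in batch 1. In batch 1 subunit D, part of the central rotor, ranked seventh at 368 to 393. In batch 2 it ranked first in all 3 libraries, at 1071, 934 and 857 at 10%, 20% and 40%. The ranges of subunits A and B overlap in batch 1, so their order is not resolved.

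Within families with several genes, 1 gene held nearly all of the TPM of subunits F, c, D, d and AC45. Vha14-1 held 100% of subunit F in every library and Vha16-1 at least 99.98% of proteolipid c. Vha36-1 held 99.6% to 99.9% of subunit D, VhaAC39-1 99.2% to 99.6% of subunit d and VhaAC45 97.1% to 99.9% of the AC45 pair. Vha68-2 held 99.5% to 99.6% of subunit A in batch 1 and 95.4%, 95.7% and 93.3% at 10%, 20% and 40% in batch 2, with Vha68-1 holding nearly all of the rest. VhaM9.7-b held 92.5% to 96.0% of subunit e and VhaM9.7-c 3.81% to 6.82%.

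Subunit a was the exception, with 4 of its 5 isoforms expressed. Vha100-5 (2L, 11738948 to 11744524, plus strand) held the largest share in every library, 58.6%, 63.2% and 68.5% in replicates 1, 2 and 3 at 10% oxygen, 59.1%, 55.0% and 64.1% at 20%, and 54.6% at 40%. Vha100-2 (3R, 18390323 to 18399169, minus strand) held 31.5%, 27.3% and 18.1% at 10%, 31.6%, 34.8% and 22.8% at 20%, and 27.4% at 40%. The widely used isoform was thus second to Vha100-5 in these guts, and its share was lower in batch 2 than in batch 1 at 10% and 20%. Vha100-1 (3R, 29131193 to 29137980, plus strand) held 4.40% to 5.06% in batch 1. In batch 2 its share was 8.71% at 10%, 9.52% at 20% and 15.7% at 40%.

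**Figure D2:**
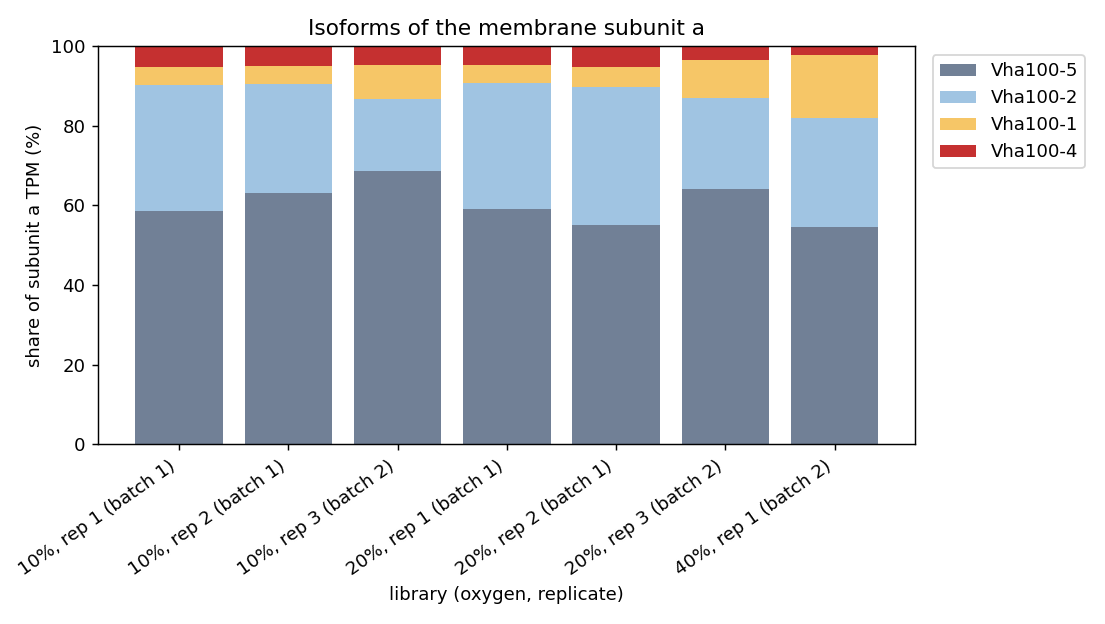
Share of the summed TPM of subunit a held by each expressed isoform, in percent, 1 stacked bar per library. Vha100-5 is the largest share in all 7 libraries, and the 40% library has the smallest share of Vha100-4 (2.40%) and the largest of Vha100-1 (15.7%).

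The copper-cell isoform Vha100-4 (3R, 18386841 to 18389805, minus strand, just downstream of Vha100-2) held 5.39%, 5.13% and 4.72% of subunit a at 10% oxygen, 4.70%, 5.19% and 3.57% at 20%, and 2.40% at 40%. The 40% library had the lowest share of the 7, and the 10% and 20% libraries overlapped. By counts, 62 of 2679 subunit a counts at 40% gave 2.31% (exact Clopper-Pearson 95% interval 1.78% to 2.96%), below the interval of its 20% batch mate, 3.002% to 4.03% around 3.49%. These intervals cover counting error only. Averaged over batches, the share at 10% exceeded that at 20% by 0.725 percentage points (two-sided exact permutation within batch, p = 0.333). The 12 arrangements allow no p below 0.167. The 5 isoforms are paralogs, and reads that fit several of them can be split by the quantification.

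The first comparison asked whether the pump genes differ between 10% and 20% oxygen. No pump gene was called: edgeR's quasi-likelihood test over 9278 genes passed 0 of the 19 pump genes that met its filter on low counts, as it passed 0% of all genes (adjusted p from 0.776 to 0.999). At an unadjusted p below 0.05 there was 1 pump gene, Vha100-4, against 584 of all genes, and DESeq2 and limma also called 0 pump genes, where DESeq2 called 124 of all genes and limma 0. The other 11 pump genes were too low to be tested. Of the 19 tested, 12 had fold changes below 0, where 47.9% of all genes did, and 7 above. The median log2 fold change was -0.07, beside a median of 0.01 over all genes tested.

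The A and B genes had no call between 10% and 20%. Vha68-2, the main catalytic A gene (2L, 12974322 to 12978607), stood at 923, 864 and 462 CPM in replicates 1, 2 and 3 at 10% and at 952, 896 and 485 at 20%. Vha55, the only B gene (3R, 12623762 to 12627829), stood at 844, 840 and 421 CPM at 10% and at 933, 880 and 454 at 20%. For Vha55 each library at 10% lay below the 20% libraries of its batch (fitted log2 difference -0.11, SE 0.06, edgeR adjusted p = 0.814). For Vha68-2 the batch 1 libraries overlapped and the log2 fold change was -0.06 (SE 0.07).

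The other V1 genes had no call either. Vha44 (subunit C, whose release uncouples V1 from V0) stood at 291, 283 and 186 CPM at 10% and at 308, 295 and 198 at 20%, with the 10% libraries lower in each batch. Vha13 (subunit G of the outer stalk) stood at 308, 351 and 341 CPM at 10% and at 430, 373 and 347 at 20%, with a fitted log2 fold change of -0.20 (SE 0.11), the lowest of the 19. It was lower at 10% in both batches, by little in batch 2. Vha14-1 (subunit F of the rotor) stood at 134, 132 and 134 CPM at 10% and at 160, 151 and 130 at 20%, lower at 10% in batch 1 only. Vha26 (subunit E of the outer stalk) stood at 546, 548 and 302 CPM at 10% and at 591, 568 and 311 at 20%. Vha36-1 (subunit D) stood at 259, 244 and 1100 CPM at 10% and at 276, 258 and 817 at 20%. The batch 1 libraries of Vha26 and Vha36-1 differed by less than 0.1 on the log2 scale between group means, and the batch 2 value of Vha36-1 was the higher one at 10%.

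In the membrane sector, too, no gene passed, and the fold changes of Vha100-4 and Vha100-5 lay above 0. Vha16-1, the proteolipid gene, had the most reads of the pump genes in each 10% and 20% library. It stood at 1561, 1571 and 1185 CPM at 10% and at 1766, 1646 and 1237 at 20%. VhaAC39-1 (subunit d; X, 3880748 to 3882967) stood at 256, 238 and 132 CPM at 10% and at 266, 257 and 153 at 20%. Both were lower at 10% within each batch, with log2 fold changes of -0.10 (SE 0.07) and -0.13 (SE 0.07), neither called.

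VhaM9.7-b (subunit e) stood at 199, 197 and 188 CPM at 10% and at 230, 204 and 192 at 20%. VhaM9.7-c, the minor gene of subunit e, stood at 12.03, 11.1 and 15.4 CPM at 10% and at 13.1, 10.97 and 16.5 at 20%. VhaAC45, an accessory subunit that binds V0, stood at 343, 381 and 195 CPM at 10% and at 414, 416 and 187 at 20%. Only VhaM9.7-b of these 3 was lower at 10% against every 20% library of its batch.

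Vha100-4 had the highest fold change of the 19 pump genes tested. It stood at 40.8, 38.5 and 23.5 CPM at 10% and at 35.6, 35.4 and 15.3 at 20%, so each 10% library exceeded the 20% libraries of its batch. The ratio was 1.12 in batch 1 and 1.54 in batch 2, and the fitted log2 difference was 0.30 (SE 0.11, edgeR adjusted p = 0.776; 0.16 in batch 1 alone and 0.37 without replicate 2 at 10%). Vha100-5 came next at 436, 467 and 336 CPM at 10% and 440, 368 and 270 at 20% (log2 difference 0.21, SE 0.10, adjusted p = 0.784), with batch 1 libraries that overlapped.

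Vha100-2 stood at 266, 229 and 100.4 CPM at 10% and at 267, 265 and 109 at 20%, a log2 fold change of -0.11 (SE 0.08). Vha100-1 stood at 37.5, 36.2 and 47.0 CPM at 10% and at 38.2, 37.6 and 44.0 at 20%, a log2 fold change of 0.00 (SE 0.06). Neither isoform passed, and Vha100-1 was lower at 10% in batch 1 and higher in batch 2.

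Copper-cell markers were set beside Vha100-4. The copper-cell homeotic gene lab stood at 4.84, 5.30 and 1.72 CPM at 10% and at 3.29, 4.08 and 1.03 at 20% (log2 difference 0.53, SE 0.16, edgeR adjusted p = 0.776). The midgut transcription factor gene dve had 0.38 (SE 0.07, adjusted p = 0.486) and Ptx1, a homeobox gene of the middle midgut, 0.21 (SE 0.09). The marker ct stood at 11.95, 3.06 and 3.16 CPM at 10% and at 8.15, 12.04 and 4.12 at 20%. Its batch 1 libraries overlapped, and its batch 2 value was the lower one at 10%. None of the 7 tested copper-cell markers was called; 5 were above 0 and the median was 0.21. In batch 1 the markers summed to 438 and 458 CPM under hypoxia, against 422 and 411 under normoxia. In batch 2 the sums were 435 CPM under hypoxia and 292 under normoxia. Most of that batch 2 gap came from the copper importer gene Ctr1B, with 208 CPM against 107. Its batch 1 levels overlapped, with 50.8 and 45.1 CPM under hypoxia and 54.0 and 42.8 under normoxia. The broadly expressed alpha-Spec made 154 to 285 CPM of the sums in these 2 groups. A further marker, alka, was at or near 0 in every library. The part of copper cells in the Vha100-4 values was not tested.

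Malpighian tubules, whose principal cells are rich in V-ATPase, were checked with their own markers. The summed level of 16 tubule and hindgut markers was 640, 188 and 305 CPM at 10%, 539, 626 and 480 at 20%, and 254 at 40%. The tubule urate oxidase Uro stood at 8.22 CPM in replicate 2 at 10% against 68.0 to 126 in the other batch 1 libraries. Best4 was at 0 throughout. Without replicate 2 at 10% the median log2 fold change of the 19 pump genes was -0.05, and 0 were called.

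**Figure D3:**
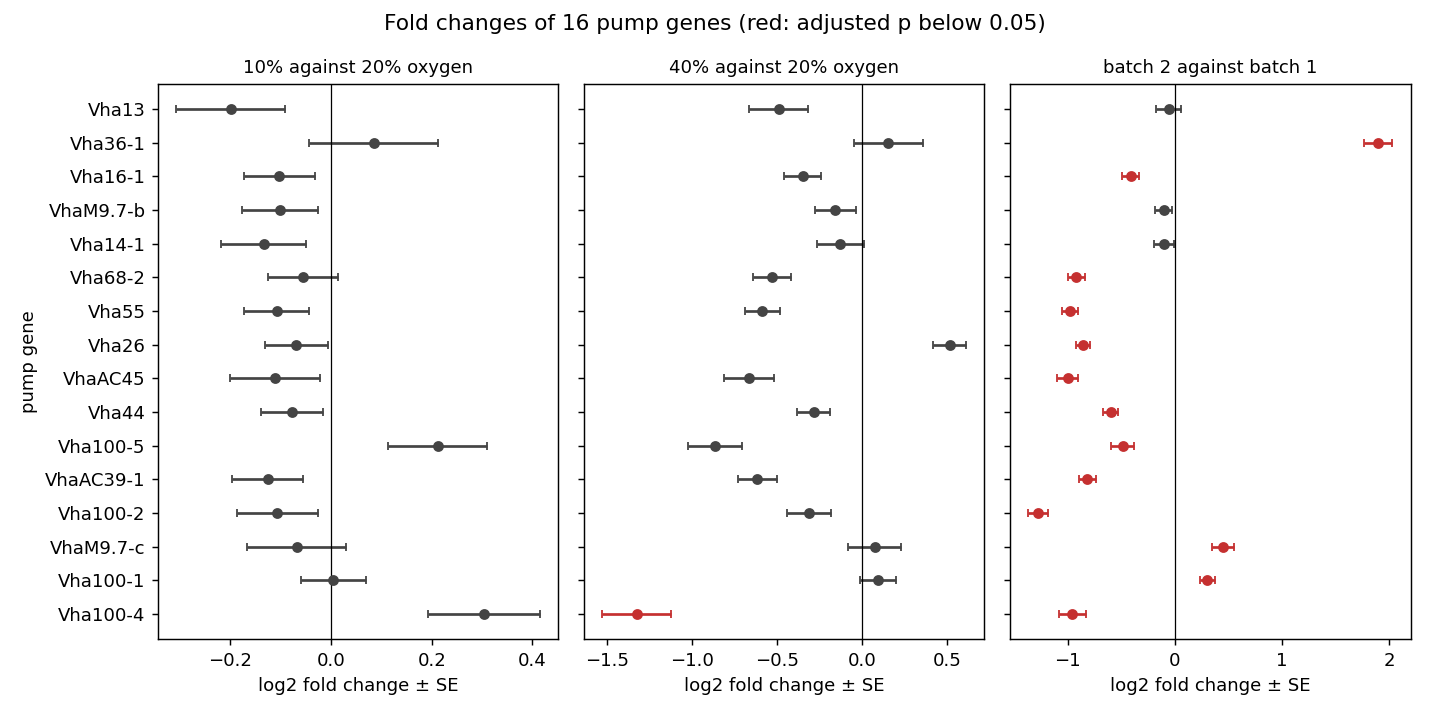
Log2 fold changes with SE of the 16 more abundant pump genes, by edgeR, for 10% against 20% oxygen (left), 40% against 20% (middle) and batch 2 against batch 1 (right), each panel with its own axis. Red marks adjusted p below 0.05: none on the left, Vha100-4 at -1.32 in the middle, and 13 genes on the right.

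The second comparison set the 40% library against 20% oxygen, with batch in the model and all 7 libraries. With no replicate at 40%, that library is taken to vary as the others do. Of 21 pump genes tested, Vha100-4 fell and none rose, while 3.17% of all 10068 genes were called (1.76% lower, 1.41% higher). Of the 21, 13 had fold changes below 0, where 52.7% of all genes did, and the median was -0.28 beside -0.03 over all genes. At an unadjusted p below 0.05 there were 11 pump genes, and 2115 of all genes.

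Vha100-4 stood at 6.85 CPM at 40% (62 counts), against 15.3 at 20% and 23.5 at 10% in batch 2. The 40% value was the lowest of all 7 libraries, 0.449 times that of the 20% library of its batch. Fitted log2 differences were -1.32 (SE 0.20, edgeR adjusted p = 0.0471) against 20% and -1.63 (SE 0.20, adjusted p = 0.0450) against 10%. The 40% against 10% comparison, where Vha100-4 was also the 1 pump gene called of 21 (1.16% of all genes were called, 0.715% as lower), shares the 40% library and is no second measurement of it. The call against 20% was lost in each of the 6 fits that leave out a library (adjusted p from 0.0527 to 0.120) and with no batch term (0.546), with fold changes still below 0. Against 10% it was lost in 5 of 6 such fits.

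Copper-cell markers were set beside it again. The gene lab stood at 1.44 CPM at 40% against 1.03 in the 20% library of batch 2, Ptx1 at 12.9 against 13.4 and dve at 11.7 against 9.43. The copper importer gene Ctr1B stood at 74.2 against 107 and the zinc transporter gene Zip42C.1 at 21.5 against 3.52. Of 7 tested markers 0 were called in either direction by edgeR (4 above 0, median 0.37), and their summed level was 282 CPM at 40% against 292 at 20% in batch 2. At 10% in batch 2 the levels were 1.72 CPM for lab, 17.5 for Ptx1 and 208 for Ctr1B, all above the 40% library, and 11.4 for dve and 5.78 for Zip42C.1, both below it. Against 10%, 0 of 7 markers were called by edgeR, 5 lay below 0 (median -0.16), and the summed level was 435 CPM at 10% in batch 2. The part of copper cells in the lower Vha100-4 value was not tested. The lab value rests on few counts at this depth, where 3 counts make 0.332 CPM.

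The main A gene, the B gene and the main d gene had their lowest values in the 40% library, without a call by edgeR. Vha55 stood at 303 CPM at 40%, against 454 at 20% and 421 at 10% in batch 2 (log2 fold change -0.58, SE 0.10, adjusted p = 0.0572). Vha68-2 stood at 335 CPM, against 485 and 462 (-0.53, SE 0.11, adjusted p = 0.0764). VhaAC39-1 stood at 97.1 CPM, against 153 and 132 (-0.62, SE 0.11, adjusted p = 0.0625). For each of these genes the 40% library was below every other library.

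Vha100-5 had the lowest fold change after Vha100-4. It stood at 154 CPM, against 270 and 336 at 20% and 10% in batch 2 (-0.86, SE 0.16, adjusted p = 0.0614). VhaAC45 stood at 125 CPM, against 187 and 195 (-0.66, SE 0.15, adjusted p = 0.0811). Both were lowest in the 40% library, and neither passed.

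The remaining core genes differed by less. Vha16-1 stood at 985 CPM, against 1237 and 1185 (-0.35, SE 0.11), and Vha13 at 263 CPM, against 347 and 341 (-0.49, SE 0.17). Vha44 stood at 161 CPM (-0.28, SE 0.10) and Vha100-2 at 87.2 CPM (-0.31, SE 0.13). VhaM9.7-b stood at 176 CPM (-0.16, SE 0.12) and Vha14-1 at 127 CPM (-0.13, SE 0.14). All 6 lay below both batch mates, and none was called. Of the 16 more abundant genes, 12 were lower in the 40% library than in both batch mates, 3 were higher and 1 lay between. The same shares were not computed over all genes, so this count has no background beside it.

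DESeq2 called 8 pump genes at 40% against 20% where edgeR called 1. They were Vha55, Vha68-2, VhaAC39-1, VhaAC45, Vha16-1, Vha100-5 and Vha100-4 lower and Vha26 higher. DESeq2 also called 972 of all genes where edgeR called 319.

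Vha26, subunit E (3R, 5591763 to 5595356, plus strand), had the highest fold change of the 16 more abundant genes at 40% against 20%. It stood at 448 CPM at 40%, against 311 at 20% and 302 at 10% in batch 2 (0.51, SE 0.10, edgeR adjusted p = 0.0651; DESeq2 0.55, adjusted p = 3.06e-07). The 40% value was 1.44 times that of the 20% library of its batch, while batch 1 stood at 546 to 591 CPM. Vha100-1 (48.5 CPM against 44.0 and 47.0), VhaM9.7-c (17.1 against 16.5 and 15.4) and Vha36-1 (1032 against 817 and 1100) had uncalled log2 fold changes of 0.09, 0.07 and 0.15. On the log2(TPM + 1) scale, which is not corrected for composition, Vha26 had 0.08 and Vha36-1 -0.29, neither called. With no batch term Vha26 had -0.13.

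Ratios between genes of the same library do not depend on the scaling. The TPM of Vha26 divided by that of Vha55 was 0.738, 0.749 and 0.841 at 10%, 0.722, 0.731 and 0.844 at 20%, and 1.88 at 40%. Against Vha68-2 it was 0.688 to 0.759 in the other 6 libraries and 1.55 at 40%. Both ratios in the 40% library were more than 2 times those in any other library. Vha26 was singled out after its values were seen. It was not alone outside the range of the other libraries. At 40%, 13 of 17 pump genes (2 of them outside the naming rule) lay above that range relative to Vha55, 1 below and 3 inside. Relative to Vha68-2 the numbers were 10, 2 and 5. Both reference genes were themselves low at 40%, with log2 fold changes against 20% of -0.58 for Vha55 and -0.53 for Vha68-2. The median over all genes was -0.03. These ratios were not computed over all genes, so the counts have no background beside them and depend on the reference. Vha68-2 over Vha55 was 0.992 to 1.14 in the other libraries and 1.21 at 40%, and VhaAC39-1 over Vha55 was 0.409 to 0.522 and 0.509. Vha100-4 over Vha55 was 0.0324 to 0.0509 in the others and 0.0225 at 40%, so it was also lower relative to the core. Vha100-5 over Vha55 was 0.374 to 0.739 and 0.512 at 40%, inside the range of the others.

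**Figure D4:**
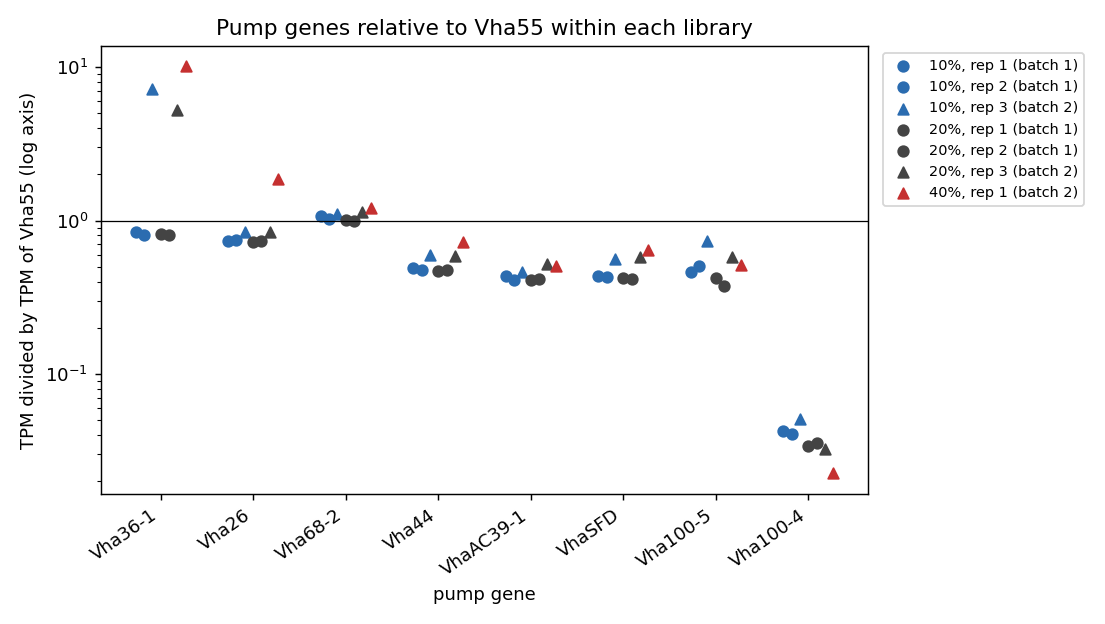
TPM of 8 pump genes divided by the TPM of Vha55 in the same library (log axis), 1 point per library, coloured by oxygen level, with circles for batch 1 and triangles for batch 2. Vha36-1 is at 0.804 to 0.842 in batch 1 and at 5.29 to 10.1 in batch 2, Vha26 stands apart in the 40% library at 1.88, and Vha100-4 is lowest there at 0.0225.

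Enterocyte markers were set beside the core genes. Myo61F stood at 233 CPM against 373 at 20% in batch 2 (log2 fold change -0.71, SE 0.11, edgeR adjusted p = 0.0483) and the gut homeobox gene cad at 14.0 against 29.2 (-1.01, SE 0.18, adjusted p = 0.0600). Other markers stood higher at 40% than at 20% in batch 2: mex1 at 590 CPM against 382, Mal-A1 at 1096 against 811 and nub at 65.9 against 48.1. Of 9 enterocyte markers 6 were below 0 and 1 was called. Their summed level was 17560 CPM at 40%, 28339 at 20% and 29390 at 10% in batch 2. Most of that sum came from the protease genes alphaTry (6815 CPM at 40% against 9651 at 20%), betaTry (5356 against 9008) and Jon65Aiv (3317 against 7949). The part of enterocyte content in the pump values was not tested. Among summed markers of other tissues, muscle was at 12863 CPM at 40% against 13462 at 20% in batch 2, trachea at 451 against 341 and tubule and hindgut at 254 against 480. The fat body list had 1 called gene of 6 at 40% against 20%, takeout (to), which rose (3.05, SE 0.14, edgeR adjusted p = 0.00874), and none of the muscle (16 tested), neuron (9), trachea (9), ovary (12), testis (2) or tubule and hindgut (14) markers was called. Their medians were 0.56 for fat body, -0.19 for muscle, -0.21 for neurons, 0.14 for trachea, -1.89 for ovary, -0.19 for testis and -0.72 for tubule and hindgut. At 10% against 20% edgeR called 0 genes of any of these lists.

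The pump genes outside the naming rule had no call at 40%. VhaSFD, the V1 subunit H, stood at 323, 314 and 204 CPM at 10%, at 344, 321 and 222 at 20%, and at 161 at 40% (40% against 20%: -0.44, SE 0.11, edgeR adjusted p = 0.0948). VhaPPA1-1, a second type of proteolipid, stood at 329, 307 and 123 CPM at 10%, at 339, 328 and 142 at 20%, and at 116 at 40% (-0.25, SE 0.11, adjusted p = 0.306). ATP6AP2, the accessory renin receptor homologue, had -0.40 (SE 0.10, adjusted p = 0.109). Both subunit genes were lowest in the 40% library, none of the 3 was called, and VhaPPA1-2 was at 0 in all 7 libraries. Other genes of this list stood slightly higher at 40% than at 20% in batch 2. Rbcn-3A was at 46.7 CPM against 45.4, Rbcn-3B at 46.0 against 40.7 and mtd at 136 against 124. Of the 6 tested genes, 2 had fitted fold changes above 0 and 4 below at 40% against 20% (median -0.15). At 10% against 20%, 0 of the 6 tested genes of this list were called, with 3 above 0.

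Related pathways were described by counts. Of 23 lysosomal genes tested at 40% against 20%, 2 fell and none rose (15 below 0, median -0.17), and the called genes were the alpha-mannosidases LManV (-2.52) and LManII (-2.12). Of 32 ion transport genes, the inward rectifier potassium channel Irk2 rose (0.84, SE 0.12, edgeR adjusted p = 0.0437) and the anion transporter Prestin fell (-0.86, SE 0.13, adjusted p = 0.0471), with a median of -0.07. Of 16 genes around Mitf, the fly counterpart of the lysosomal regulator TFEB, and the nutrient-sensing TORC1 kinase, 0 were called by edgeR in either direction (median -0.10). Nearest to a call were Lamtor2 (1.02, adjusted p = 0.0751), Sesn (-1.90, adjusted p = 0.0961) and RagC-D (-0.46, adjusted p = 0.116). At 10% against 20% none of these lists had a called gene; the medians were 0.12, 0.02 and 0.02, and the lowest p in each belonged to SPoCk (0.30), SLO2 (-2.25) and mTor (0.25).

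The third comparison, batch 2 against batch 1 over the 10% and 20% libraries, showed where the pump genes vary most. Of 19 tested, 10 fell and 5 rose, while 55.6% of all genes were called (26.9% lower, 28.7% higher). The median of the pump genes was -0.49, beside -0.03 over all genes. The genes that fell most were Vha100-2 (-1.28, SE 0.09, edgeR adjusted p = 0.000317), VhaAC45 (-1.001, SE 0.10) and Vha55 (-0.98, SE 0.07). Vha100-4 (-0.96, SE 0.12), Vha68-2 (-0.92, SE 0.08), Vha26 (-0.86, SE 0.07), VhaAC39-1 (-0.82, SE 0.08), Vha44 (-0.60, SE 0.07), Vha100-5 (-0.49, SE 0.11) and Vha16-1 (-0.41, SE 0.08) fell as well. In the same comparison 7 of 9 enterocyte markers fell and 1, mex1, rose (1.62, SE 0.09, edgeR adjusted p = 0.000183), and all 16 muscle markers rose (median 4.16). Of 7 copper-cell markers 4 fell and 1 rose, with dve at -1.99, Ptx1 at -1.99 and lab at -1.67. Their part in the pump values was not tested, and batch and tissue content cannot be told apart.

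The genes that rose in batch 2 were Vha36-3, Vha68-1, Vha36-1, VhaM9.7-c and Vha100-1. Vha36-1 (2R, 15541435 to 15542498), the main rotor D gene, rose by 1.90 on the log2 scale (SE 0.13, edgeR adjusted p = 0.000295), with 244 to 276 CPM in batch 1 and 817 to 1100 in batch 2 at 10% and 20%. It was the 1 abundant core gene to do so. Relative to Vha55 its TPM was 0.804 to 0.842 in batch 1 and 5.29 to 10.1 in batch 2. The annotation gives Vha36-1 a single transcript and no exon shared with another gene.

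The minor isoforms did not all go the same way. Vha68-1, the second A gene (2L, 13000770 to 13004107), stood at 3.86 to 4.37 CPM in batch 1. The batch 2 values were 23.4 at 10%, 22.5 at 20% and 25.4 at 40% (2.50, SE 0.08, edgeR adjusted p = 5.98e-05). Vha36-3 (X, 2579091 to 2580560) stood at 0.142 to 0.338 CPM in batch 1 and at 4.42, 2.92 and 4.75 in batch 2 (3.89, SE 0.40). Both rose. VhaAC45RP, too low to be tested between batches, stood at 0.173 to 0.369 CPM in batch 1 and reached 1.44, 0.600 and 3.21 at 10%, 20% and 40% in batch 2, from at most 29 counts. VhaM9.7-c (0.45, SE 0.10) and Vha100-1 (0.30, SE 0.07) rose by less, and on the log2(TPM + 1) scale their direction turned, to -0.96 and -1.01. The call of VhaM9.7-c was lost without either batch 2 library in turn (edgeR adjusted p up to 0.0942), that of Vha100-1 without replicate 3 at 10% (0.0828), and that of Vha100-5 without replicate 3 at 20% (0.0925). VhaAC39-2, the minor d isoform, lay at 0.766 to 1.24 CPM in batch 1 and at 0.542, 0.343 and 0.332 at 10%, 20% and 40% in batch 2 (-1.16, edgeR adjusted p = 0.0694), from at most 43 counts. On the log2(TPM + 1) scale it was called lower, at -0.85. On that scale the median over all genes was -0.96, and 7686 of 9278 genes were called. VhaM9.7-a lay at 0.144 to 0.774 CPM, from at most 12 counts, and was not tested between batches.

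Transcripts of the same gene were compared as the quantification assigned them, with no error of its own and no test. Vha55 is annotated with 3 transcripts of the same coding sequence. The form of 2722 bases has a 3′ untranslated region of 1005 bases, and the form of 2048 bases has one of 460 bases and a start site further downstream. The short form held 40.6%, 38.2% and 31.4% of Vha55 TPM at 10%, 41.0%, 42.5% and 12.8% at 20%, and 1.58% at 40%. It was lower in all batch 2 libraries than in batch 1 and lowest at 40%. Vha44, with forms of 1470 and 2693 bases whose coding parts also differ, shifted the same way: the short form held 72.0%, 71.7% and 62.9% at 10%, 72.3%, 74.1% and 54.8% at 20%, and 52.6% at 40%.

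**Figure D5:**
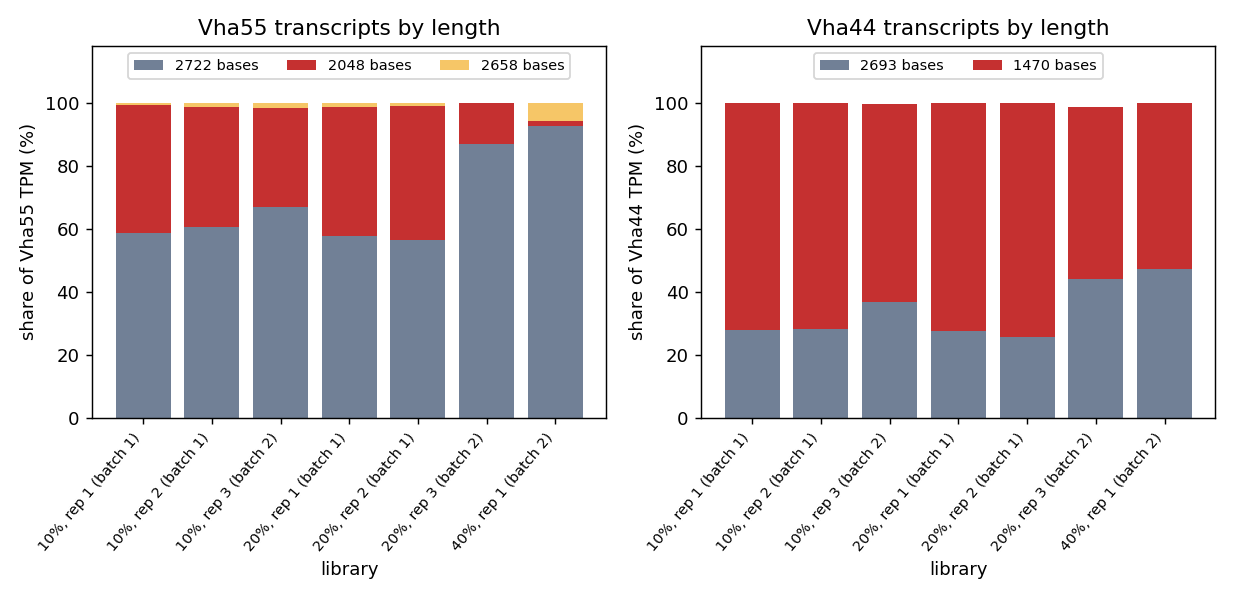
Share of the gene's TPM, in percent, held by transcripts of different length of Vha55 (left) and Vha44 (right), 1 stacked bar per library; red marks the shorter form of each pair. The 2048-base form of Vha55 holds 38.2% to 42.5% in batch 1 and 1.58% in the 40% library, and the 1470-base form of Vha44 holds 71.7% to 74.1% and 52.6%.

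Vha100-1 shifted with batch between forms of similar length whose coding parts differ. Its 2959-base form held 72.8% and 72.9% at 10% and 72.6% and 63.0% at 20% in batch 1. In batch 2 that form held 41.9% at 10%, 26.7% at 20% and 27.7% at 40%. The 2944-base form was at 0 in batch 1 and held 28.5%, 14.9% and 34.9% in batch 2. Not all pump genes showed a shift. The 2 forms of Vha100-5 kept 97.8% to 99.6% on the shorter one in all libraries, and the 2833-base form of Vha16-1 held 81.9% to 87.8%. The main form of Vha26 (2171 bases) held 92.1% to 92.8% in batch 1. The batch 2 libraries had 95.7% at 10%, 95.5% at 20% and 98.5% at 40%. Fragment length moved with batch: the median of transcript length minus effective length was 273 to 281 bases in batch 1. The batch 2 libraries had 245.3 at 10%, 254.7 at 20% and 230.3 at 40%. Its part in the transcript shares was not tested. Vha44 shares exonic bases with Hmgs on the opposite strand (842 to 1255 counts), and Vha100-5 with an antisense RNA at 0 to 2 counts; the libraries are strand-specific by their labels, but the strand setting of the counting is not given in the sources used here.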

How the data were processed

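RNA-seq libraries of 7 midgut samples were analysed. For each library the authors deposited the transcript table written by Salmon, whose headers name expected counts (estimated reads), TPM and effective length. A deposited table pairs transcripts and genes. The submitters' processing notes list STAR 2.7.11b and Salmon 1.10.3, and the settings and genome build were not given in the sources used here. Of the quantified transcripts, all 41539 transcripts have the length given in Ensembl's BDGP6.54 annotation, from which coordinates are taken.

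Counts and TPM were summed per gene, and counts were rounded. Genes were tested with edgeR 4.0.16 (R 4.3.3) by quasi-likelihood, with TMM scaling, filterByExpr and batch as covariate. Calls were Benjamini-Hochberg adjusted p below 0.05 over all genes tested. SE is the fold change over the root of the test statistic. CPM per library used the TMM factors of the fit of all 7 libraries (0.457 at 40% to 1.63). Total depth was 19.2 to 22.2 M counts, and the detection floor of 3 counts was 0.0827 to 0.332 CPM. On simulated data with known changes, the fits missed most genes changed by the smaller of the simulated folds. Alternatives were DESeq2 1.42.0, limma 3.58.1 on log2(TPM + 1) and log2(TPM + 0.1), other scalings and filters, no batch term, a replicate block and leaving out each library.

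Same-numbered libraries at 10% and 20% share a batch in the labels, and their deviations from group means correlated across genes at 0.384, 0.415 and 0.693, with 0.476 and 0.383 between different numbers of batch 1, so the numbers follow the batch. The pump genes and the 13 gene lists were chosen with earlier results of these data known. Every pump gene is accounted for; values by library are given for those with a mean TPM of at least 10 or a call, and each list is described by its counts and its members of lowest p; for the cell type lists, defining markers outside that rule (lab, Ptx1, dve, alka, alpha-Spec, betaTry, Uro and Best4 among them) were named after their values were seen. No set test was run.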

Additional observations from a re-analysis of the deposited data

How the results depend on the processing

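At 10% against 20% oxygen 0 pump genes were called under every alternative run, the replicate block (0 called) included, which changed no call, and the median log2 fold change ranged from -0.09 to -0.04. At 40% against 20% the count of 1 became 8 with DESeq2, 12 with log2(TPM + 1) and 12 with log2(TPM + 0.1), and 0 with no batch term. It was 0 to 0 when single libraries were left out. At 40% against 10% the count of 1 became 0 with DESeq2 size factors, 2 with no filter on low counts, 7 with DESeq2, 10 and 12 with log2(TPM + 1) and log2(TPM + 0.1), and 0 with no batch term. It was 0 to 1 when single libraries were left out. DESeq2 size factors (1), no filter (1), leaving out mitochondrial genes (1) and length offsets (1) kept the count of 1 at 40% against 20%. Between batches 13 to 19 pump genes were called throughout. The share of Vha100-4 differed between 10% and 20% by 0.308 to 0.848 percentage points when single libraries were left out, and by 0.736 over counts. Values called in either fit turned direction on the TPM scale alone: Vha14-1 at 40% against 10% went to -0.46, and between batches VhaM9.7-c went to -0.96 and -1.02 and Vha100-1 to -1.01 and -1.10. TPM is not corrected for the mitochondrial share, and its median over all genes was -0.23 at 40% against 20% and -0.96 between batches, on the log2(TPM + 1) scale. Over all 10068 genes the 319 calls at 40% against 20% became 972 with DESeq2, 1105 and 1729 on the TPM scales, and 0 to 69 when single libraries were left out. The 117 calls at 40% against 10% became 815, 1089 and 1715 with DESeq2 and on the TPM scales. The 40% library could not be left out. The replicate block was run for 10% against 20% only, and the replicate number of the 40% library lies in another batch. Depth limits the 40% library most, with 5.73 M nuclear counts.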
